A study of Mus musculus with 16 samples.

Results

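The matrix metalloproteinase (MMP), ADAMTS, ADAMTS-like and TIMP genes were examined in the neonatal mouse cochlea, with and without loss of Lgr5-expressing supporting cells. A gene was a member if its symbol was Mmp, Adamts or Adamtsl followed by a number, or Timp1 to Timp4. This rule found 51 genes among the 47729 with values, namely 23 Mmp, 19 Adamts, 5 Adamtsl and 4 Timp genes. Of these, 41 passed the filter on low values, at least 0.5 CPM (read counts scaled by the total on genes of the library) in all replicates of at least 1 group, and were tested among 16994 genes. The tested members were 13 Mmp genes and every Adamts, Adamtsl and Timp gene. A member that is high in 1 group only can pass such a filter through that group, as Adamts18 did through control input and Mmp8 through DTR input.

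RNA came from P4 cochleae of mice in which GLAST-CreERT switched on an HA-tagged form of the ribosomal protein Rpl22 (the RiboTag system), so that ribosome-bound mRNA of the cells with Cre activity could be pulled down. Control pools had the genotype GLAST CreERT/+ and Rpl22 HA/+, and DTR pools carried the Lgr5 DTR-EGFP/+ allele in addition, which places the diphtheria toxin receptor in Lgr5-expressing cells. By the study's methods, both genotypes received diphtheria toxin and tamoxifen at P1, while the labels give no treatment for the control and DTR treatment for the other group. Before freezing, Reissner's membrane, the lateral wall and the spiral ganglia had been dissected away, by the same methods. A small part of each homogenate was kept as input (RNA of the dissected duct) and the rest went into the immunoprecipitate (IP, RNA on tagged ribosomes). This gave 4 libraries of input and 4 of IP from each genotype, and each pool held cochleae of several mice. Input and IP of 1 number came from the same pool, GLAST is made by several supporting and glial cell types, and tagged ribosomes show only where Cre was active.

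MMPs are zinc-dependent endopeptidases that are made as inactive precursors and are secreted or held at the cell membrane. Between them they cleave collagens, gelatin, laminins and many cell surface proteins. ADAMTS proteins are secreted zinc proteinases with thrombospondin repeats that bind the matrix, and include cleavers of large proteoglycans and of procollagen propeptides. ADAMTS-like proteins have the repeats but no catalytic domain, and TIMPs block MMPs by occupying the active site, with Timp3 also blocking several ADAMTS enzymes. In the cochlea the tectorial membrane, made by the greater epithelial ridge (GER), and the basilar membrane below the sensory epithelium are the matrices closest to the cells studied.

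Total counts on genes ranged from 28089836 to 41966310 reads per library, so 3 reads, the most that a count of 0 allows, stood for 0.0715 to 0.107 CPM by counting error alone. Across the lists of cell type markers, supporting cell and GER markers summed to 6269 to 9592 CPM in control input and 4058 to 4939 in DTR input, and to 6720 to 7623 in control IP and 3325 to 4120 in DTR IP. Red blood cell, macrophage, endothelial, Schwann cell and hair cell markers were mostly lower in IP than in input, while mesenchymal and cartilage markers were present in every group. The 7 neutrophil markers summed to 3.12 to 4.79 CPM in control input and 2.22 to 25.4 in DTR input, 2 of them passed the filter, and Ly6g stayed at or below 0.0964 CPM. Lgr5 itself averaged 63.3 CPM in control input and 15.9 in DTR input, and 36.6 in control IP and 9.38 in DTR IP. In RNA from mixed cells, fewer cells of a type and less RNA per cell cannot be told apart. The p-values of the main fit measure the spread between libraries within groups, taken over both fractions. That fit treated input and IP from the same pool as independent libraries.

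Of the 10 members below the filter, 9 are Mmp genes that lie together on chromosome 9 (GRCm38, 7272514 to 7699585), a cluster of 10 members in which Mmp8 alone was tested. The promoter windows of 8 of them are shown because they share a motif. The letters TGANTCA (N, any base) are a loose form of the site of the AP-1 (Fos and Jun) factors, and the pattern is identical on both strands. These letters were searched in 300 base windows from RefSeq (GRCm38.p6) that run from 250 bases before to 50 after a transcript start. They were present in 8 of 10 cluster genes, in 0 of 26 other members with a window, and in 8.97% of all 27025 genes with a window (7.81% of 32851 windows). Mmp12 and Mmp7 each have a further window with no match, which for Mmp12 is the one nearest to the annotated start of the gene. Below, 110 bases before to 20 after the start are printed with the AP-1 letters in capitals:
Mmp13 (chr9:7272404-7272533, plus strand): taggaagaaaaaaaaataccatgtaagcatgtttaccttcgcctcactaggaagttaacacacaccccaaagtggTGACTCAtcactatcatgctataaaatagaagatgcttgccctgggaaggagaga
Mmp12 (chr9:7347264-7347393, plus strand): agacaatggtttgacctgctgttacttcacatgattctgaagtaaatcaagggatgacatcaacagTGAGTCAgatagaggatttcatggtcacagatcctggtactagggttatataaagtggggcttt
Mmp1b (chr9:7388007-7388136, minus strand): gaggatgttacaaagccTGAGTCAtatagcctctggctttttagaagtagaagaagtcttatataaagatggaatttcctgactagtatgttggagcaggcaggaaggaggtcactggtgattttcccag
Mmp3 (chr9:7445712-7445841, plus strand): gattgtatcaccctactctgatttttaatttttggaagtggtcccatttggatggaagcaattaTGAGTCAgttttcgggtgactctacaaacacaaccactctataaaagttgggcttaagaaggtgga
Mmp1a (chr9:7464031-7464160, plus strand): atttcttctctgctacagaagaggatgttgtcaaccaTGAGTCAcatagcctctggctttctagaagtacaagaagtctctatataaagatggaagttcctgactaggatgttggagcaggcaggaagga
Mmp10 (chr9:7502232-7502361, plus strand): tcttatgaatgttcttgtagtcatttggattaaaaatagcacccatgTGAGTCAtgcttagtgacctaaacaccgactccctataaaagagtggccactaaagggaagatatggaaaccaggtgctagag
Mmp20 (chr9:7628121-7628250, plus strand): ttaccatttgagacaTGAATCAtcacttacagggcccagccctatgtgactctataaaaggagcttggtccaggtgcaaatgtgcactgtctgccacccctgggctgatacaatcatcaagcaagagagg
Mmp7 (chr9:7691980-7692109, plus strand): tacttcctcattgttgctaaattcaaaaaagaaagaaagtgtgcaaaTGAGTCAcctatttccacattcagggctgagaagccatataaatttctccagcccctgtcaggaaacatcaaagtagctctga

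The capitals begin 35 bases before the start in Mmp13, a collagenase, and 44 bases before it in Mmp12, the macrophage elastase. The letters were TGAATCA in Mmp20, TGACTCA in Mmp13 and TGAGTCA in the other six. Mmp8 and Mmp27 of the same cluster had no match in this window, and 15 members had no window in the table. A match is a description of the letters and shows no binding.

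The untested genes of this cluster gave few or no reads. Mmp1a and Mmp1b (collagenases) and Mmp3 and Mmp10 (stromelysins) had 0 reads in all 16 libraries, which allows up to 0.0715 to 0.107 CPM. Mmp7 (matrilysin) had 8 reads and Mmp20 (the enamel proteinase) 3 reads over the 16 libraries together, and Mmp27 had 15. Mmp13 reached 50 reads (1.19 CPM) in control input replicate 1 and no more than 0.916 CPM elsewhere. Mmp21, the only member below the filter that lies outside this cluster, stayed at or below 0.244 CPM. Mmp8, the neutrophil collagenase, ranged from 0.229 to 1.08 CPM over all libraries and was called in no comparison.

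Levels of different genes were compared as CPM per kb of exon sequence. Mmp2, also called gelatinase A, had the highest level in control input, at 372 ± 58.3 CPM per kb (SD, n = 4), followed by its inhibitor Timp2 at 259 ± 13.2 and by Mmp14, the membrane-type enzyme that activates pro-Mmp2, at 115 ± 10.8. Timp3, the inhibitor that binds to matrix, stood at 72.9 ± 6.95, and Adamts2, the main procollagen I N-proteinase, at 34.0 ± 3.31. Mmp15 (23.0 ± 3.47) and Mmp11 (22.5 ± 2.29) came next, and Timp1 (9.79 ± 1.09) and Adamts17 (9.11 ± 2.80) followed. The libraries of neighbours in this order did not overlap, except for the pairs Mmp15 and Mmp11, and Timp1 and Adamts17. In control IP the first 3 places were the same, at 252 ± 61.2 CPM per kb for Mmp2, 147 ± 8.52 for Timp2 and 132 ± 25.1 for Mmp14, whereas Mmp11 came next at 44.1 ± 2.43 and Timp3 stood behind Adamts2 at 23.9 ± 2.63.

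Summed over each family, MMP genes gave 552 ± 66.0 CPM per kb in control input and 451 ± 87.1 in control IP. The TIMP sum was 343 ± 19.7 in control input and 180 ± 10.7 in control IP. The ADAMTS sum was 94.4 ± 9.46 in control input against 72.4 ± 8.75 in DTR input, and the ADAMTS-like sum 5.09 ± 0.375 in control IP against 7.48 ± 0.599 in DTR IP. The libraries of the last 2 pairs did not overlap. Those of DTR and control did overlap for the ADAMTS sum in IP, the ADAMTS-like sum in input, and the MMP and TIMP sums in both fractions. These sums, which a few abundant genes dominate, were not tested.

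**Figure D1:**
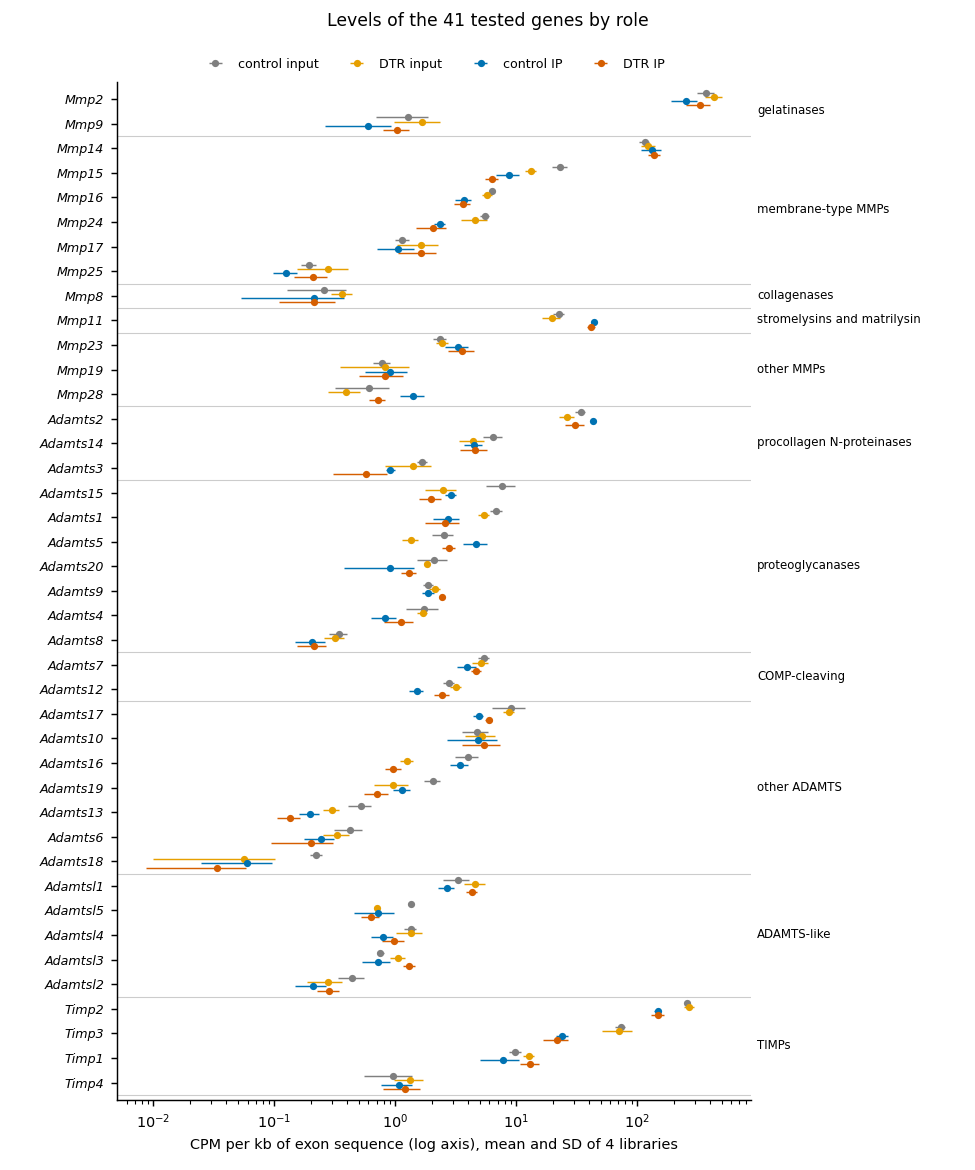
CPM per kb of exon sequence on a log axis (points, mean; bars, SD of 4 libraries) for the 41 tested genes, ordered by role and coloured by group. Mmp2, Timp2 and Mmp14 stood above 100 CPM per kb in every group, while Adamts18, Adamts13, Adamts8 and Mmp25 were among the genes below 1.

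The change after damage in the immunoprecipitated RNA was taken from DTR IP against control IP. A call needed a limma adjusted p under 0.05 over all genes tested, a fold above 1.5 and no overlap of the normalized libraries. Of the 41 tested members 3 rose and 4 fell, where 4.65% of all genes tested rose and 4.38% fell. The members that fell were 3 ADAMTS proteinases, Adamts16, Adamts5 and Adamts19, and Mmp28, and those that rose were Adamts12 and the ADAMTS-like genes Adamtsl1 and Adamtsl3. The median log2 fold change (LFC) was -0.02 over the 41 members, 0.02 without Adamts18 and Mmp8, and -0.00 over all genes. With an adjusted p under 0.05 but no call were Mmp2, Mmp15, Adamts2, Adamts9 and Adamts13. No collagenase (1 of 4 was tested), gelatinase, membrane-type MMP, procollagen N-proteinase or TIMP was called.

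Adamts16 (ENSMUSG00000049538, GRCm38 chr13:70727802-70841811, minus strand), a proteinase with few established substrates, had the most negative LFC among members after damage in IP, while in input Adamts15 and Adamts18 lay within 1 SE of it. Its 4 control IP libraries held 25.5, 20.3, 19.96 and 28.2 CPM, and the DTR IP libraries 7.46, 7.05, 5.20 and 6.67. In input it had 21.6, 23.8, 35.2 and 27.8 CPM in control and 8.45, 8.67, 7.23 and 9.75 in DTR. The lowest control library stood well above the highest DTR library in both fractions. The LFC was -1.78 ± 0.18 (SE, limma adjusted p = 9.1e-07) in IP and -1.66 ± 0.18 (adjusted p = 2.3e-06) in input. In the undamaged cochlea its IP and input levels did not pass the test (LFC -0.21, 95% interval -0.58 to 0.17).

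Adamts5 (ENSMUSG00000022894, chr16:85856173-85901828, minus strand), the main aggrecan-cleaving enzyme of mouse cartilage, was the only member called in all 4 comparisons of 2 groups. It held 59.0, 60.9, 41.6 and 40.4 CPM in control IP and 31.7, 34.4, 28.2 and 26.0 in DTR IP. In input it fell from 32.5, 29.6, 20.2 and 26.1 CPM to 14.3, 16.7, 11.7 and 15.0. Every IP library of a genotype was above every input library of that genotype, and every control library above every DTR library of its fraction. The LFC after damage was -0.77 ± 0.16 (limma adjusted p = 0.0020) in IP and -0.92 ± 0.16 (adjusted p = 0.00048) in input.

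Mmp28 (ENSMUSG00000020682, chr11:83440768-83463071, minus strand), epilysin, was the only MMP called in IP after damage. Its values were 4.01, 4.86, 6.55 and 6.47 CPM in control IP and 2.96, 2.17, 2.82 and 3.16 in DTR IP. All DTR libraries lay below all control libraries (LFC -0.99 ± 0.26, limma adjusted p = 0.012). In input, where values ran from 1.16 to 3.84 CPM, it did not pass (LFC -0.55 ± 0.26, limma adjusted p = 0.20). Of its exon bases 12.03% are shared with the opposite-strand gene 1700020L24Rik, and the library kit does not mark strand, so their reads there cannot be told apart.

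Adamts19 (ENSMUSG00000053441), a proteinase known from heart valve development, had 13.8, 19.8, 14.7 and 15.9 CPM in control IP and 10.2, 9.93, 7.16 and 12.7 in DTR IP (LFC -0.71 ± 0.21, limma adjusted p = 0.024). This call was lost without control IP replicate 2 (LFC -0.64) or 4 (LFC -0.67), and without DTR IP replicate 1 (LFC -0.70) or 3 (LFC -0.58), and with no filter on low values (limma adjusted p = 0.053). In input the fall, from 23.1, 27.5, 31.4 and 32.8 CPM to 9.51, 14.3, 11.4 and 19.0, had an LFC of -1.13 ± 0.21 (limma adjusted p = 0.00082) and stood without any 1 library.

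Among the members that rose in IP, Adamtsl3 (ENSMUSG00000070469, chr7:82335694-82614450, plus strand), also called punctin-2, had 6.19, 7.36, 4.44 and 4.25 CPM in control IP and 9.93, 9.01, 11.7 and 9.57 in DTR IP. Adamtsl1 (ENSMUSG00000066113, chr4:85514172-86428385, plus strand), punctin-1, rose from 27.2, 32.8, 37.3 and 38.4 CPM to 49.8, 51.6, 62.0 and 55.8. In both genes every DTR IP library was higher than every control IP library. Their LFCs were 0.71 ± 0.15 (limma adjusted p = 0.0034) and 0.66 ± 0.18 (limma adjusted p = 0.014). In input the LFCs were 0.41 for Adamtsl3 and 0.47 for Adamtsl1, neither of which was called. Without control input replicate 3 Adamtsl1 was called there (LFC 0.62, limma adjusted p = 0.027). Adamts12 (ENSMUSG00000047497, chr15:11064790-11349231, plus strand), which cleaves cartilage oligomeric matrix protein, had 16.4, 19.3, 14.0 and 15.8 CPM in control IP and 24.5, 31.5, 27.4 and 22.8 in DTR IP (LFC 0.62 ± 0.13, limma adjusted p = 0.0024).

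The rises of Adamtsl1 and Adamts12 lay close to the fold limit. After removal of the trend of LFC with gene length, both fell short of it, with LFCs of 0.54 each, and the 6 members then called were 1 that rose and 5 that fell. Without control IP replicate 1 the Adamtsl1 call was lost (LFC 0.55), and without DTR IP replicate 2 or control IP replicate 3 that of Adamts12 (LFC 0.54 and 0.56). Markers of several other cell types were also higher in DTR IP. For otic mesenchyme and fibroblasts 10 of 10 had an LFC above 0 and 2 were called, with sums of 5143 to 6371 CPM in control IP and 6637 to 8130 in DTR IP. For endothelium and pericytes 7 of 7 were above 0 and 2 called (184 to 239 and 270 to 334 CPM), and for macrophages 9 of 9 and 2 called (17.9 to 30.7 and 39.4 to 63.1 CPM). Hair cell markers summed to 177 to 251 CPM in control IP and 259 to 289 in DTR IP, with 1 of 9 called higher and 1 lower. Of the supporting cell and GER markers, 0 of 10 had an LFC above 0 in either fraction, with 8 called lower in IP and 5 in input. The part of these lists in the changes of the members was not tested.

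**Figure D2:**
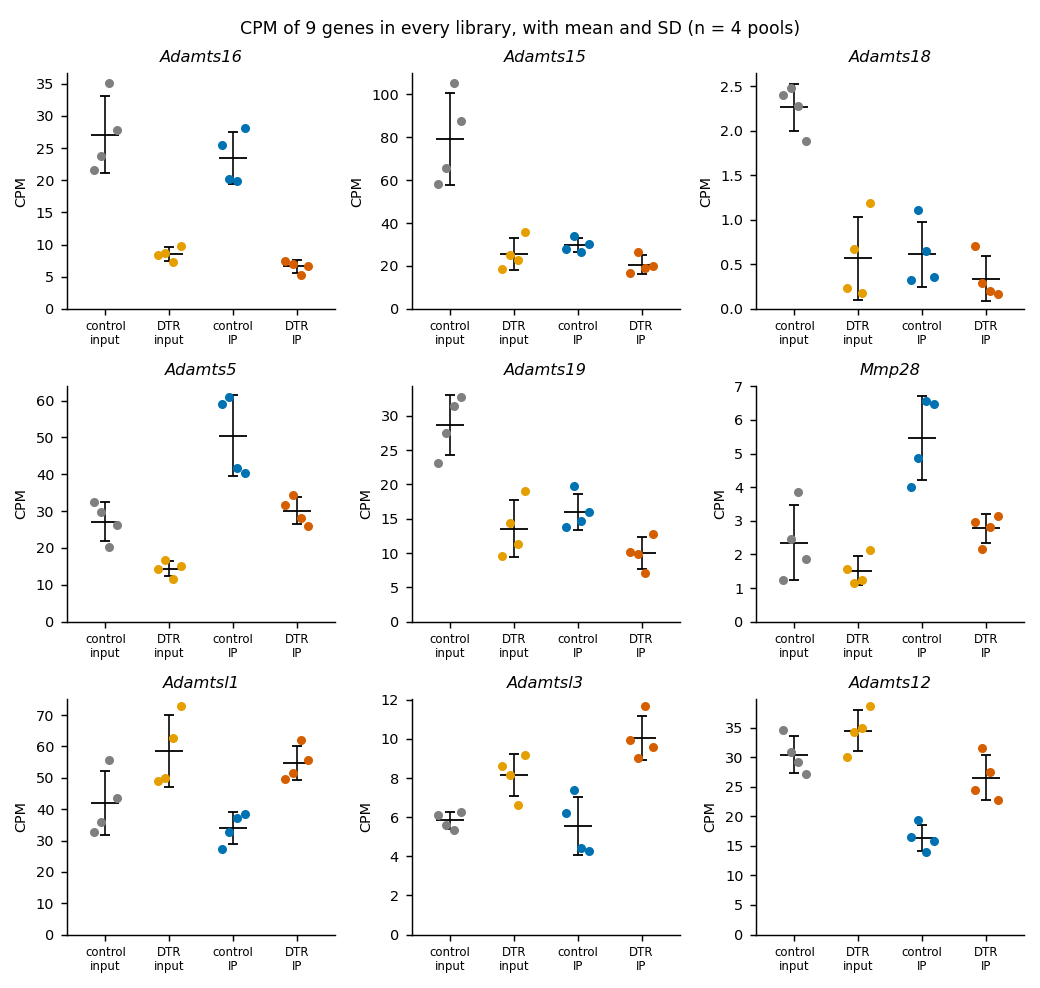
CPM in each of the 16 libraries (points) with the group mean and SD (bars) for 9 members called after damage in IP or input. The 4 DTR libraries of Adamts16 lay below 10 CPM in both fractions, against 19.96 CPM or more in control, while Adamtsl1, Adamtsl3 and Adamts12 were higher in every DTR IP library than in any control IP library.

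In the dissected duct, DTR input against control input, 8 of 41 members fell and 0 rose, against 3.51% of all genes that fell and 4.76% that rose. All 8 members with an adjusted p under 0.05 were among the calls. By unadjusted p 14 of 41 members passed 0.05, against 3944 of all 16994 genes. Without Adamts18 and Mmp8, which passed the filter through 1 group each, 7 of 39 fell and 13 passed the unadjusted 0.05. The calls were 6 ADAMTS proteinases (Adamts5, Adamts13, Adamts15, Adamts16, Adamts18 and Adamts19), the ADAMTS-like gene Adamtsl5 and the membrane-type Mmp15. The median LFC was -0.13 over members and -0.02 over all genes. Over the 19 ADAMTS genes, Adamts18 included, it was -0.35, with 3 of 19 above 0. For the 13 tested MMP genes the median was 0.01.

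Adamts15 (ENSMUSG00000033453, chr9:30899155-30922452, minus strand), which cleaves versican and aggrecan, had 58.2, 65.7, 105 and 87.4 CPM in control input and 18.7, 25.0, 22.8 and 36.0 in DTR input. All DTR input libraries were below all control input libraries (LFC -1.61 ± 0.20, limma adjusted p = 1.6e-05). In IP it was 29.8 ± 3.24 CPM (SD, n = 4) in control and 20.6 ± 4.27 in DTR, an LFC of -0.58 ± 0.20 that did not pass (limma adjusted p = 0.061). It was called in IP without DTR IP replicate 2 (LFC -0.71), without the length trend (LFC -0.66) and by DESeq2 (LFC -0.60). Its neighbour Adamts8, 20109 bases away, was not called in any comparison and ranged from 0.654 to 1.86 CPM.

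Adamts18 (ENSMUSG00000053399, chr8:113697126-113848738, minus strand), a proteinase with roles in eye development, was a low-level gene. It had 2.41, 2.48, 2.27 and 1.89 CPM in control input, and 0.236, 0.671, 0.179 and 1.19 in DTR input. The groups did not overlap (LFC -1.54 ± 0.27, limma adjusted p = 0.00050), though the DTR input libraries differed among themselves by more than the whole range in control. It passed the filter through control input alone, so a fall from that group was favoured by the filter. With no filter on low values the adjusted p was 0.0025. In IP, values from 0.164 to 1.11 CPM overlapped between genotypes.

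Mmp15 (ENSMUSG00000031790, chr8:95352268-95375080, plus strand), the second membrane-type MMP, had 147, 130.2, 102 and 118 CPM in control input and 76.3, 71.7, 59.9 and 75.8 in DTR input (LFC -0.79 ± 0.14, limma adjusted p = 0.00074). In IP it had 46.1, 54.0, 33.0 and 53.3 CPM in control and 37.5, 33.9, 28.3 and 35.7 in DTR. The IP libraries overlapped, and no call was made there although the adjusted p was 0.029 (LFC -0.47). Without control IP replicate 3 Mmp15 was called in IP (LFC -0.62, limma adjusted p = 0.0033). The other membrane-type MMPs were called in neither fraction.

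Adamtsl5 (ENSMUSG00000043822), an ADAMTS-like protein that binds microfibrils, fell from 6.74, 6.19, 6.19 and 6.13 CPM in control input to 3.40, 3.17, 3.50 and 3.14 in DTR input (LFC -0.91 ± 0.18, limma adjusted p = 0.0020). Adamts13, which cleaves von Willebrand factor, fell from 2.43, 1.94, 3.26 and 2.56 CPM to 1.27, 1.62, 1.28 and 1.71 (LFC -0.71 ± 0.18, limma adjusted p = 0.012), a call that was lost without control input replicate 3 (LFC -0.59). Adamtsl2, a fibrillin-associated gene, missed the threshold in input (LFC -0.68 ± 0.23, limma adjusted p = 0.058) and passed it with the replicate block (limma adjusted p = 0.034) and without DTR input replicate 4 (LFC -0.81). Macrophage markers rose in input, with 5 of 9 called, and Schwann cell markers fell, with 2 of 6 called and a median LFC of -0.86. Macrophage markers summed to 108 to 117 CPM in control input and 145 to 229 in DTR input, and Schwann cell markers to 1896 to 3335 and 896 to 1294. The part of these lists in the falls of the members was not tested.

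**Figure D3:**
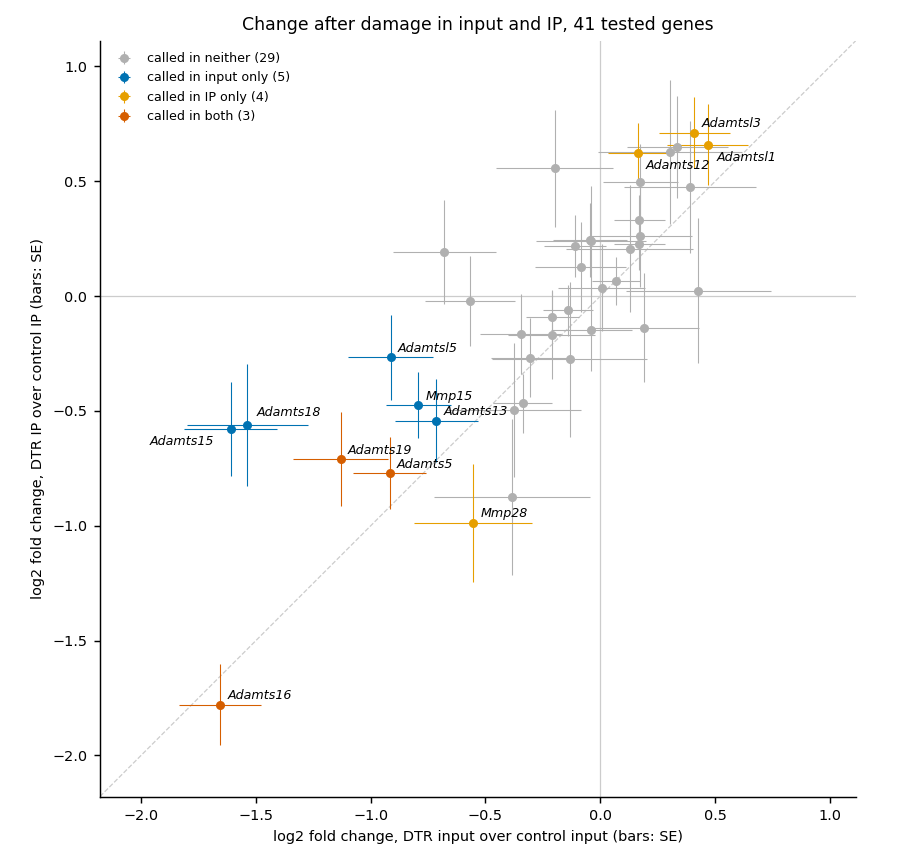
LFC after damage in input (x axis) against IP (y axis) for the 41 tested members, with SE bars; colours give the calls and the dashed line equal change. Adamts16, Adamts5 and Adamts19 were called in both fractions, Adamts15 and Adamts18 lay far below 0 in input and nearer to 0 in IP.

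Whether the change after damage differed between IP and input was tested as an interaction. No member was called by limma, edgeR or DESeq2, and over all genes limma called 0% higher and 0.0118% lower (2 genes). By unadjusted p in limma, 5 of 41 members passed 0.05, against 870 of all 16994 genes. The largest difference among these members was for Adamts15, whose change in IP was less negative than in input by an LFC of 1.03 ± 0.29 (limma adjusted p = 0.43). Adamts18 had a difference of 0.97 ± 0.37, Adamtsl2 of 0.87 ± 0.32, Adamtsl5 of 0.65 ± 0.26 and Adamts12 of 0.46 ± 0.18, with adjusted p-values from 0.71 to 0.82. For Adamts18, which passed the filter through control input alone, a larger fall in input than in IP was favoured by the filter. Its LFC in IP also depended on the pseudocount, at -0.56 with 0.5 and -1.02 with 0.1. Without Adamts18 and Mmp8, 4 of 39 members passed the unadjusted 0.05. Members called in 1 fraction after damage were thus not shown to change differently in the other.

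Control IP against control input asked which members were more or less abundant on tagged ribosomes than in the dissected duct. Here 3 of 41 members were higher in IP and 14 lower, where 11.8% of all genes were higher and 12.3% lower. Without Adamts18 and Mmp8 the counts were 3 and 13 of 39. The higher ones were Mmp11, Mmp28 and Adamts5. The lower ones held both abundant TIMPs (Timp2 and Timp3), the membrane-type MMPs Mmp15, Mmp16 and Mmp24, 7 ADAMTS proteinases and the ADAMTS-like genes Adamtsl2 and Adamtsl5. The median LFC was -0.55 over members and -0.00 over all genes.

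Mmp11 (ENSMUSG00000000901, chr10:75923222-75936496, minus strand), stromelysin-3, which furin activates inside the cell, had 125, 113, 128 and 125 CPM in control IP and 55.5, 60.1, 64.1 and 70.5 in control input. In DTR it had 105, 114, 124 and 123 CPM in IP and 54.5, 44.7, 52.8 and 67.0 in input. No IP library overlapped an input library in either genotype. The LFC of IP over input was 0.97 ± 0.12 (limma adjusted p = 2.4e-06) in control and 1.09 ± 0.12 (limma adjusted p = 8.1e-07) in DTR. It shares 5.58% of its exon bases with Chchd10 on the other strand.

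Adamts5 and Mmp28, described above, were higher in IP in both genotypes too. For Adamts5 the LFC was 0.87 ± 0.16 (limma adjusted p = 0.00022) in control and 1.02 ± 0.16 (limma adjusted p = 5.5e-05) in DTR. For Mmp28 it was 1.18 ± 0.26 (limma adjusted p = 0.0012) in control and 0.75 ± 0.26 (limma adjusted p = 0.027) in DTR. The Mmp28 call in control was lost with median centring (LFC 1.12) or without the length trend (LFC 1.14), and the call in DTR without DTR input replicate 1, 2 or 3 or DTR IP replicate 3 or 4, with LFCs from 0.66 to 0.74.

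Adamts1 (ENSMUSG00000022893, chr16:85793827-85803113, minus strand), another versican-cleaving enzyme, is the neighbour of Adamts5 on chromosome 16, 53059 bases away, and moved the other way between fractions. It had 14.0, 19.5, 11.6 and 12.7 CPM in control IP against 39.4, 37.6, 38.3 and 30.2 in control input, with no overlap (LFC -1.31 ± 0.18, limma adjusted p = 1.0e-05). In DTR its LFC of IP over input was -1.12 ± 0.18 (limma adjusted p = 6.1e-05). It was called in neither fraction after damage (IP, LFC -0.16, 95% interval -0.53 to 0.20).

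**Figure D4:**
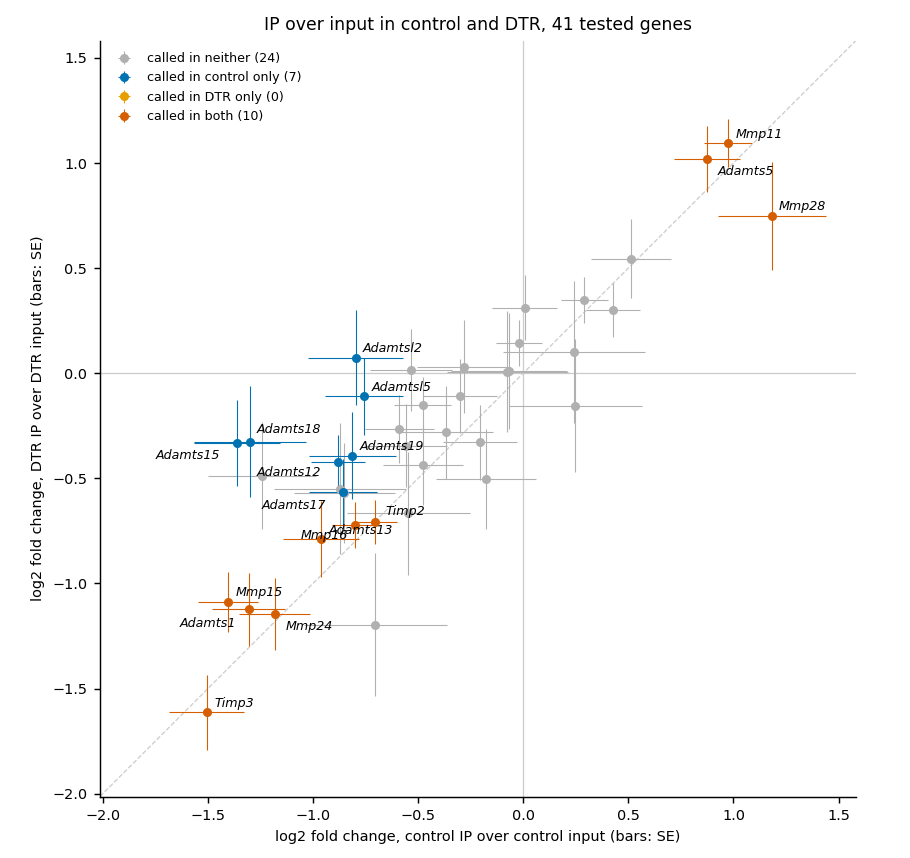
LFC of IP over input in control (x axis) and in DTR (y axis) for the 41 tested members, with SE bars; colours give the calls and the dashed line equal values. Mmp11, Mmp28 and Adamts5 lay above 0 in both, Timp3, Mmp15, Adamts1 and Mmp24 lowest among those called in both.

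Among the members lower in IP, Timp3 (ENSMUSG00000020044, chr10:86300372-86349506, plus strand) had the most negative LFC in both genotypes. It had 176, 221, 179 and 203 CPM in control IP against 636, 591, 515 and 634 in control input (LFC -1.51 ± 0.18, limma adjusted p = 2.5e-06). In DTR it had 148, 223, 139 and 201 CPM in IP against 413, 612, 505 and 782 in input (LFC -1.61 ± 0.18, limma adjusted p = 1.4e-06). Of its exon bases 21.3% overlap those of Syn3 on the other strand. Timp2 (ENSMUSG00000017466, chr11:118301069-118355740, minus strand) had 533, 559.6, 603 and 599 CPM in control IP and 1056, 968, 962 and 1053 in control input (LFC -0.71 ± 0.10, limma adjusted p = 3.0e-05), and again an LFC of -0.71 in DTR.

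Mmp24 (MT5-MMP, known from neurons) averaged 10.9 ± 1.08 CPM in control IP and 25.7 ± 2.24 in control input (LFC -1.18 ± 0.17, limma adjusted p = 2.2e-05), and 13.6% of its exon bases are shared with an opposite-strand gene. Mmp16 (MT3-MMP) averaged 31.7 ± 4.56 CPM in control IP and 54.7 ± 2.12 in control input (LFC -0.80 ± 0.11, limma adjusted p = 1.3e-05). For Mmp15 the LFC was -1.40 ± 0.14 (limma adjusted p = 4.2e-07). The remaining calls lower in control IP had LFCs from -1.36 (Adamts15) to -0.76 (Adamtsl5). They included Adamts17, a proteinase linked to fibrillin microfibrils, with 36.3, 34.3, 42.7 and 38.2 CPM in control IP and 65.2, 53.3, 102 and 61.8 in control input.

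In DTR the same comparison called 3 members higher and 7 lower, against 11.5% and 10.3% of all genes. All 10 were among the 17 called in control. The 7 members called in control alone were Adamts12, Adamts15, Adamts17, Adamts18, Adamts19, Adamtsl2 and Adamtsl5, and for none of them did the difference between genotypes pass the interaction test. Adamts17 was also called in DTR without DTR input replicate 1 or 2 or DTR IP replicate 3, with LFCs from -0.62 to -0.60. Of the 10 supporting cell and GER markers, 3 were called higher and 3 lower in control IP than in control input (median LFC 0.19). In DTR 1 of these markers was higher and 0 lower (median LFC -0.29). Markers of several other cell types were lower in IP, namely endothelium and pericyte markers (7 of 7 called lower in each genotype), red blood cell markers (4 of 4 tested) and macrophage markers (8 of 9 in control and 9 of 9 in DTR). The part of these cell types in the lower IP levels of Timp2, Timp3 and the others was not tested.

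Neither damage comparison called a TIMP. Timp1 (ENSMUSG00000001131), an inhibitor that many cells induce in injury, had 6.70, 4.80, 5.67 and 10.5 CPM in control IP and 9.45, 10.3, 12.3 and 14.1 in DTR IP. The groups overlapped through control IP replicate 4, and the LFC was 0.65 ± 0.22 (limma adjusted p = 0.054). Without that library Timp1 was called (LFC 0.89, limma adjusted p = 0.0039). In input it had 8.77, 7.43, 9.79 and 8.77 CPM in control and 10.3, 12.1, 10.1 and 12.4 in DTR (LFC 0.34, 95% interval -0.13 to 0.80).

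For Timp2 the LFC after damage was 0.07 in each fraction, with a 95% interval of -0.15 to 0.29. In IP its sign turned with the scaling, to -0.04 with median centring and -0.07 in edgeR and DESeq2. For Timp3 it was -0.15 (-0.52 to 0.23) in IP and -0.04 (-0.41 to 0.34) in input. Timp4 (ENSMUSG00000030317) ranged from 3.66 to 10.2 CPM over the 16 libraries, and its intervals were wide (IP, -0.64 to 0.69, and input, -0.24 to 1.09). As a ratio of DTR to control, the interval of Timp2 ran from 0.900 to 1.22 in IP and from 0.901 to 1.22 in input, and that of Timp4 from 0.641 to 1.61 and from 0.848 to 2.13.

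No call after damage was made for Mmp2, Mmp14 or Adamts2, the proteinases with the highest levels per kb in control input. Mmp2 (ENSMUSG00000031740, chr8:92827291-92853420, plus strand) had 831, 642, 795 and 1135 CPM in control IP and 924, 1026, 995 and 1478 in DTR IP, and 1219, 1007, 1478 and 1316 in control input and 1191, 1329.7, 1608 and 1695 in DTR input. Its LFC in IP was 0.50 ± 0.16 (limma adjusted p = 0.045), under the 1.5-fold limit, and it was called without control IP replicate 4 (LFC 0.60). On recovered reads the LFC was 0.30 in both edgeR and DESeq2, with adjusted p-values of 0.33. In input the LFC was 0.17 ± 0.16. Mmp14 (ENSMUSG00000000957, chr14:54431612-54445364, plus strand) had 720.2, 694, 720.0 and 1009 CPM in control IP and 708, 815, 842 and 943 in DTR IP, an LFC of 0.23 with a 95% interval of -0.01 to 0.46. This value was 0.08 without quantile normalization, 0.04 with median centring, -0.0050 in edgeR and -0.0055 in DESeq2. Adamts2 (ENSMUSG00000036545, chr11:50602084-50807573, plus strand) averaged 406 ± 22.0 CPM in control IP and 287 ± 51.5 in DTR IP, with no overlap, an LFC of -0.47 ± 0.13 (limma adjusted p = 0.016) and a fold short of the limit.

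**Figure D5:**
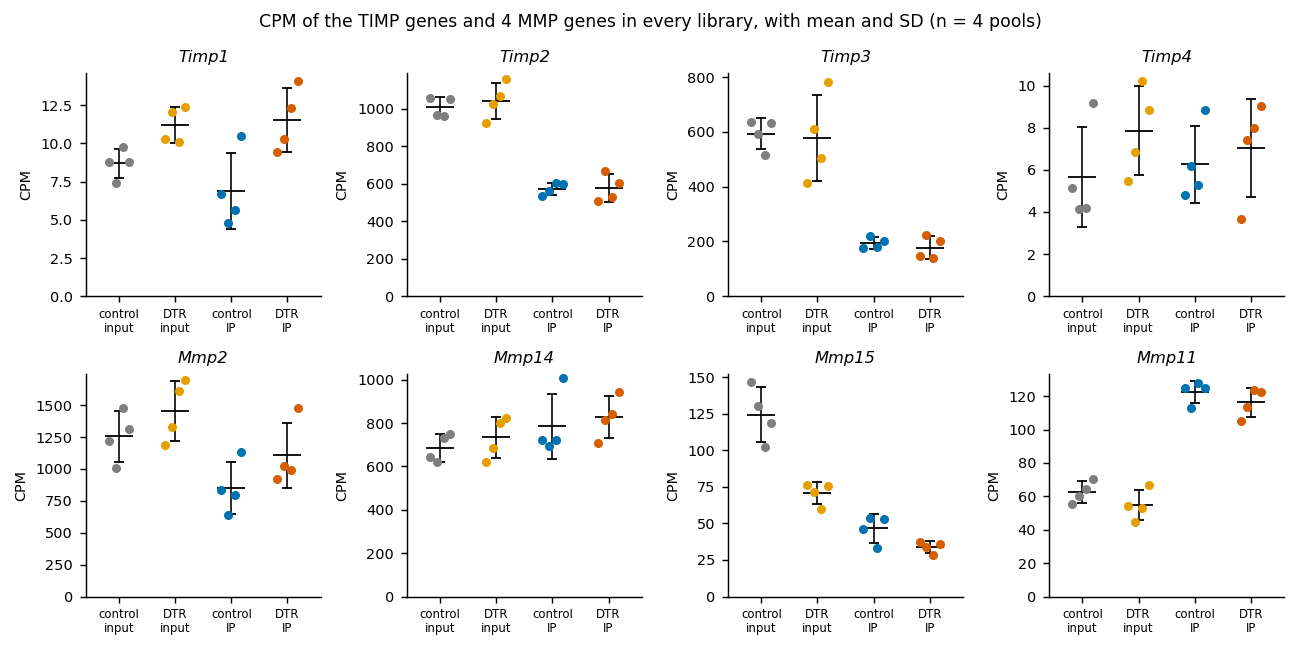
CPM in each of the 16 libraries (points) with the group mean and SD (bars) for the TIMP genes and for Mmp2, Mmp14, Mmp15 and Mmp11. Timp2, Timp3 and Mmp15 were lower in every IP library than in any input library of the same genotype, Mmp11 was higher, and the DTR and control libraries of Timp2, Timp3 and Timp4 overlapped within each fraction.

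Activators, receptors, other inhibitors and substrates of these enzymes formed a list of 35 genes with values, of which 31 were tested. In DTR IP against control IP 2 rose and 2 fell (6.45% each), where 4.65% of all genes tested rose and 4.38% fell. A2m, the broad proteinase trap alpha-2-macroglobulin, rose from 76.0 ± 12.9 CPM (SD, n = 4) to 161 ± 20.6 (LFC 1.10 ± 0.20, limma adjusted p = 0.00074), and Lrp1, the endocytic receptor that clears proteinases with their inhibitors, from 227 ± 18.5 to 395 ± 45.3 (LFC 0.86 ± 0.15, limma adjusted p = 0.00036). Adam8, a membrane metalloproteinase of another family, fell from 3.94 ± 0.570 CPM to 1.86 ± 0.220 (LFC -1.09 ± 0.23, limma adjusted p = 0.0023), and Cd44, the hyaluronan receptor and an MMP substrate, from 70.9 ± 6.49 to 47.5 ± 3.80 (LFC -0.60 ± 0.10, limma adjusted p = 0.00036). In DTR input against control input 1 of 31 rose (A2m, LFC 0.76) and 1 fell (Cd44, LFC -0.66), against 4.76% and 3.51% of all genes. The A2m call was lost without control input replicate 1 or 2 or DTR input replicate 3, which left 1 of 31 called.

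Between fractions, 1 gene of the list was higher in control IP than in control input (Adam8, LFC 1.38 ± 0.23) and 4 were lower. These were 3.23% and 12.9% of the 31 tested, against 11.8% and 12.3% of all genes. The lower ones with the largest LFCs were Thbs2, a thrombospondin that takes part in Mmp2 clearance, at -1.44 ± 0.13, Hapln1, a link protein of proteoglycans, at -1.17 ± 0.31, and Acan, the aggrecan substrate of ADAMTS enzymes, at -1.08 ± 0.28. In DTR 0 were higher and 3 lower, against 11.5% and 10.3% of all genes. Among the lower ones was Thbs2 at -1.04 ± 0.13. None of the 31 passed the interaction test in limma, and 0 were called by edgeR or DESeq2. In limma 4 of the 31 had an unadjusted p under 0.05, against 870 of all 16994 genes. Furin, which activates Mmp11 and the membrane-type MMPs, and Reck, a membrane inhibitor of Mmp2 and Mmp14, were called in no comparison, and the plasminogen activator Plau stayed below the filter.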

How the data were processed

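RNA-seq of 16 libraries was analysed. Values were deposited by the authors as CPM of each gene. By the study's methods reads were aligned to GRCm38 with HISAT2 and counted with HTSeq, while the submitters' processing notes name TopHat. The annotation release and strand setting are not given in the sources used here. Each value was a whole number of reads within 0.02 reads in 100% of cases, so counts were recovered for edgeR and DESeq2. CPM were quantile normalized, log2 transformed with a pseudocount of 0.5 and fitted over all 16 libraries with limma (version 3.58.1, mean-variance trend, two-sided, Benjamini-Hochberg over 16994 genes). LFCs are on that scale, which understates changes of low genes. Alternatives were other scalings, pseudocounts and filters, the compared groups alone, a replicate block, removal of a length trend, other call rules, edgeR (4.0.16), DESeq2 (1.42.0) and leaving out each library. Counts were also simulated over 16994 genes and fitted with limma. For DTR IP against control IP, the call rule recovered 61% of changes of 1 and 93% of changes of 2 on the log2 scale. For the interaction these shares were 46% and 82%. The simulation changed 100 genes by each size and drew every library independently, with no pairing of input and IP.

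Libraries with the same number paired: deviations from group means correlated across genes at 0.288 or more for each same-number pair (input and IP of 1 number come from the same pool). For other pairs the average was -0.119 to -0.135. Deviations sum to 0 within each group, so a negative average there follows from the positive one. In control IP against control input 3 of 4 libraries correlated best with their own number, and 4 of 4 in the other comparisons. Gene positions came from GENCODE M21 (all 51 members matched). Members named with values were those called in at least 1 comparison, the TIMPs and the 6 with the highest mean CPM; of other lists, at most 4 called genes each, and genes at or near 0 that define a cell type. Furin, Reck, Plau and Adamts8 were added after their values were seen. Members and lists were chosen with earlier results of these data known.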

Additional observations from a re-analysis of the deposited data

Results flagged for a closer look

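3 of the 100 groups of 4 libraries examined (25 named members in 4 groups) had 1 library far from the others by Dixon's test, and chance flags about 1 in 20 groups. Adamtsl5 in control input replicate 1 was 6.74 CPM, against 6.13 to 6.19 in the other replicates. Mmp14 in control IP replicate 4 was 1010 CPM (rounded), against 694 to 720 in the others. Mmp24 in control input replicate 4 was 22.4 CPM, against 26.6 to 27.1 in the others.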

How the results depend on the processing

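No called value of a named member changed sign under any alternative run. Of 2765 values of named members under alternatives 55 changed sign, all of results that were not called and had an LFC of at most 0.23 in size, such as Timp2 and Mmp14 in DTR IP against control IP. Leaving out 1 library at a time gave 6 to 8 members called in DTR IP against control IP (7 with all libraries), 8 to 10 in DTR input against control input (8), 17 to 20 in control IP against control input (17), 9 to 13 in DTR IP against DTR input (10) and 0 in the interaction. For the proteinase network these ranges were 3 to 5, 1 to 3, 5 to 7, 2 to 4 and 0, and over all genes 1503 to 1739, 1259 to 1486, 3910 to 4374, 3526 to 4101 and 0 to 6. With an adjusted p alone as the call, 12 members passed in DTR IP against control IP and 27 in control IP against control input, as against 2674 and 6787 of all genes, and 6656 of all genes in DTR IP against DTR input; the network counts became 4 in DTR input against control input, 8 in control IP against control input and 6 in DTR IP against DTR input. The stricter rule (LFC of 1 after damage or 2 between fractions, and a separation of 1.5) left 1 and 3 members in the damage comparisons and 0 and 0 between fractions, 1, 0, 0 and 0 network genes, and 419, 397, 214 and 166 of all genes. Median centring and no filter on low values each left 1 network gene in DTR input against control input. Over all genes, limma's interaction called 2; it called 1 without quantile normalization, 0 with a pseudocount of 0.1 or no filter, 40 with the replicate block and 49 with DESeq2, and edgeR called 0, while members stayed at 0 in each; the cause was not tested. The replicate block changed no member call other than that of Adamtsl2 in input (9 members called there, against 8). Without quantile normalization 62.3% of the calls over all genes in DTR IP against control IP were higher, against 51.5% with it, and members stayed at 3 higher and 4 lower. With the same call rule, 4 of 7 members called in DTR IP against control IP were called under every alternative that tested them. They were Adamts16, Adamts5, Adamtsl3 and Mmp28. The same held for 7 of 8 in input after damage, 16 of 17 in control IP against input and 8 of 10 in DTR IP against input. Those counts include Adamts18 in input after damage, and Adamts13 and Adamts18 in control IP against input. Both genes dropped out under the filter of at least 2 CPM, with control input minima of 1.94 CPM (Adamts13) and 1.89 CPM (Adamts18). Depth limits the members near 0.5 CPM, since 3 reads stand for up to 0.107 CPM.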

Other observations

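Mmp12, the macrophage elastase, was below the filter, and its reads were looked at after their values were seen. It had reads in all 4 DTR input libraries (28 reads together) and in 3 of 4 DTR IP libraries (13 reads), in 0 of 4 control input libraries and in 1 of 4 control IP libraries (1 read). Its highest level was 0.244 CPM. Macrophage markers summed to 108 to 117 CPM in control input and 145 to 229 in DTR input, and to 17.9 to 30.7 in control IP and 39.4 to 63.1 in DTR IP. The difference in Mmp12 was not tested.

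Mmp13 had 63 reads in control input, of which 50 were in replicate 1, and 45 in DTR input, 11 in control IP and 13 in DTR IP. Mmp21 had 18 reads in DTR input and 2 in control input, and 12 in control IP and 10 in DTR IP.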
